A study of Mus musculus with 6 samples.

Results

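The genes described here encode the enzymes and transporters that carry glucose through glycolysis to pyruvate and lactate, the pyruvate dehydrogenase complex with its kinases, and the enzymes of the pentose phosphate pathway. They were taken as a list of 36 gene symbols, and a probe set was counted for a gene where the platform annotation gave exactly 1 symbol and that symbol was on the list. In this way 34 genes were measured, by 73 probe sets, of the 18193 genes measured in all. Pfkfb1 and G6pdx were not analysed here, because no probe set was assigned to either symbol alone in the annotation used.

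RNA came from 344SQ, a murine lung cancer line that both groups share. The PIK3CA shRNA group (3 arrays) was transfected with vectors expressing a short hairpin RNA against mouse Pik3ca, and the control shRNA group (3 arrays) carried a control hairpin. Pik3ca encodes the p110-alpha catalytic subunit of phosphoinositide 3-kinase (PI3K). Cells of both groups were grown in RPMI medium with FBS, and the labels do not say how long after transfection RNA was taken, or whether clones were picked. The question put here is how transcripts of glucose metabolism differ between cells with and without the Pik3ca hairpin. Levels are scaled Affymetrix intensities of 1 probe set per gene, the brightest, and cannot be ranked between genes. A change is the difference of group means of log2(intensity + 16), PIK3CA shRNA minus control shRNA; the added 16 makes it too small for dim genes. A gene was called higher or lower at an adjusted p under 0.05 in a limma fit over all 18193 genes. Whether replicates came from separate cultures is not said in the labels, and the spread behind the p-values is that between these arrays, which may be technical.

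Glycolysis splits a 6-carbon sugar into pyruvate, which is either reduced to lactate and exported through monocarboxylate transporters or taken into mitochondria and oxidised by pyruvate dehydrogenase. Pyruvate dehydrogenase kinases switch that complex off by phosphorylation. The pentose phosphate pathway branches off after hexokinase and supplies NADPH and ribose phosphate. In many tumour cells PI3K signalling through AKT promotes glucose uptake and hexokinase activity, and hypoxia-inducible factors raise transcription of many glycolytic genes.

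Per-array medians lay between 134.1 and 134.7, and arrays correlated at 0.982 to 0.984 within a group and at 0.974 to 0.977 between groups over all probe sets. The targeted gene was lower as labelled: the brightest Pik3ca probe set averaged 1235 ± 14.5 in PIK3CA shRNA cells and 2380 ± 64.5 in control shRNA cells (SD, n = 3 each), 51.9% of control. In 5 of its 6 probe sets all PIK3CA shRNA arrays were below all control arrays, and the exact permutation test (two-sided) gave 0.1 for each, the smallest p that 3 against 3 arrays allow. Epithelial markers were bright in both groups. The keratin genes Krt8, Krt18 and Krt19, Cdh1 and Epcam summed to between 43156 and 43871 in PIK3CA shRNA cells and to between 42149 and 44960 in control shRNA cells, and 0 of these 5 genes were called by limma (1 of the 5 had an unadjusted p under 0.05).

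Of the 34 measured genes, 8 passed the threshold: 5 were higher and 3 lower in PIK3CA shRNA cells. Aldoc, Eno3, Rpia, Hk2 and Tpi1 rose, and Pdk3, Slc16a3 and Pdhb fell. With any 1 array left out, 1 to 2 were higher and 1 to 2 lower, Eno3 and Pdk3 among them each time. The 8 genes are 23.5% of those measured, against 11.5% of all genes tested (5.88% higher and 5.62% lower). These genes were bright, with 27 of 34 above the median brightness of all genes, and of those 27 genes 25.9% were called, against 17.6% of all genes above that median. The median absolute change was 0.16 for the 34 genes and 0.17 for all genes, a comparison not matched for brightness. The median signed changes were 0.02 and -0.01, and none of the 34 changed by as much as 2-fold. Groups of arrays did not overlap in 16 of the 34 genes (47.1%), against 33.1% of all genes. An unadjusted p under 0.05 was reached by 38.2% of the 34 genes and by 25.9% of all genes. Neither the overlap nor the unadjusted p comparison was matched for brightness.

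**Figure D1:**
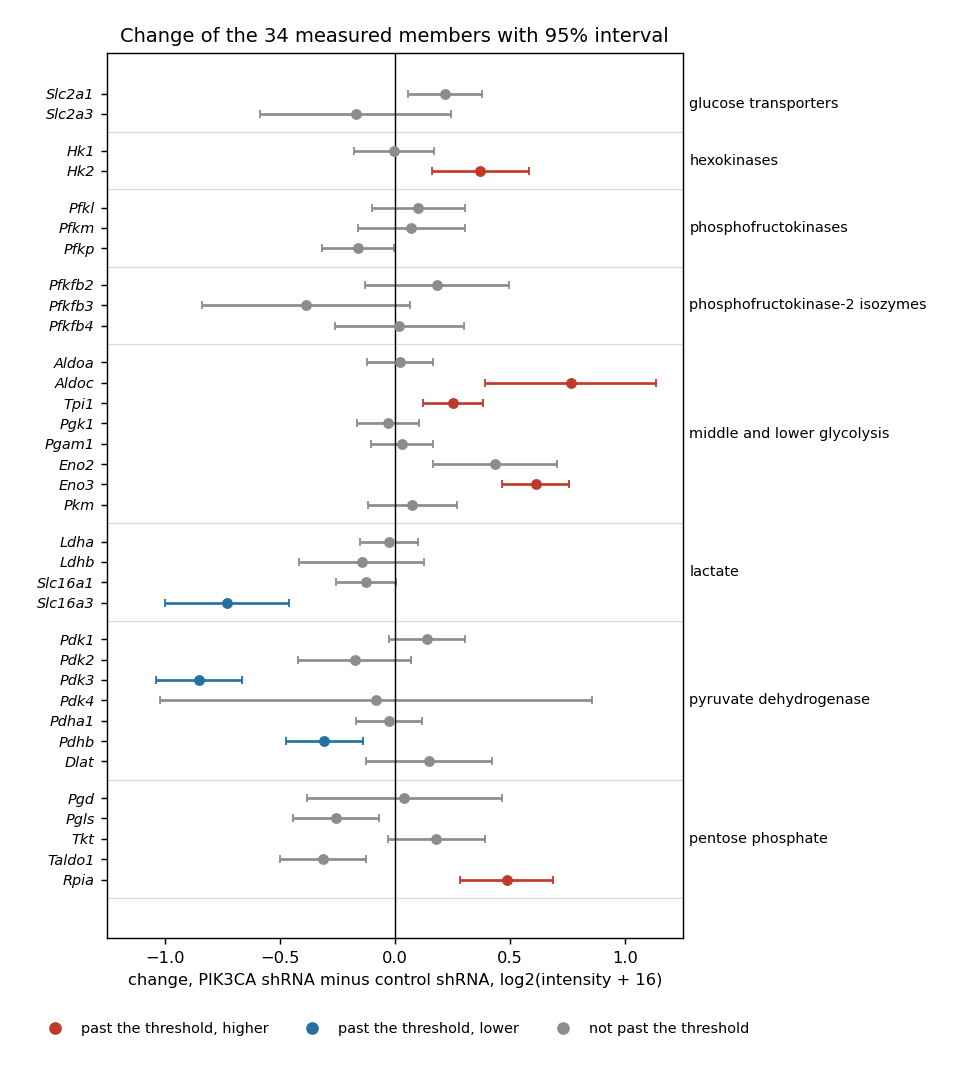
Change of each measured gene (PIK3CA shRNA minus control shRNA, log2(intensity + 16)) with its 95% interval from the limma fit, grouped by role; red points passed the threshold and were higher, blue points passed and were lower, grey points did not pass. The 8 coloured points run from -0.85 for Pdk3 to 0.76 for Aldoc, and most grey points lie within 0.2 of 0.

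The largest change was in pyruvate dehydrogenase kinase 3. Pdk3, a kinase isozyme known from human cells as hypoxia-inducible, had intensities of 340, 328 and 351 in PIK3CA shRNA cells, against 681, 610 and 589 in control shRNA cells. All 3 PIK3CA shRNA arrays lay far below the lowest control array, at 54.2% of the control mean. Pdk3 thus changed by -0.85 (standard error 0.08, limma adjusted p = 0.00328), and the call held when any 1 array was left out.

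Slc16a3 encodes MCT4, the monocarboxylate transporter known for lactate export from strongly glycolytic cells and, in human cells, as a hypoxia-inducible gene. Its single probe set read 143, 168 and 126 in PIK3CA shRNA cells, against 263, 249 and 240 in control shRNA cells. The groups did not overlap, and the level in PIK3CA shRNA cells was 58.1% of control. Slc16a3 changed by -0.73 (standard error 0.11, limma adjusted p = 0.0144). Slc16a3 lay below the median brightness of all genes, and its call was lost without control shRNA replicate 1 (adjusted p = 0.0582), control shRNA replicate 2 (0.0569) or PIK3CA shRNA replicate 1 (0.0585), where it remained between -0.73 and -0.70.

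Pdhb, the beta subunit of the E1 enzyme of pyruvate dehydrogenase, was the third gene to fall. It read 2532, 2736 and 2456 in PIK3CA shRNA cells, against 3226, 3262 and 3077 in control shRNA cells. These groups also did not overlap, but the difference was small, with 80.8% of the control level and a change of -0.31 (standard error 0.07, limma adjusted p = 0.0429). A dimmer Pdhb probe set read 131 ± 17.4 in PIK3CA shRNA cells and 132 ± 6.17 in control shRNA cells (SD, n = 3 each), so that the mean of both probe sets was at -0.16 and not called (adjusted p = 0.197). The call of the brighter one was lost in each of the 6 fits that left out 1 array, with adjusted p up to 0.131.

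Among the genes that rose, Aldoc and Eno3 encode tissue-type isozymes, the aldolase best known from brain and the enolase best known from muscle. Eno3 had intensities of 1188, 1209 and 1218 in PIK3CA shRNA cells, against 753, 819 and 777 in control shRNA cells. The arrays of each group lay close together and far from the other group. Eno3 changed by 0.61 (standard error 0.06, limma adjusted p = 0.00392), and it passed whichever array was left out. Aldoc read 1307, 1401 and 1304 in PIK3CA shRNA cells, against 855, 620 and 895 in control shRNA cells. Here the control arrays were spread more widely, with control replicate 2 the lowest. Aldoc changed by 0.76 (standard error 0.15, limma adjusted p = 0.0316), and of the 6 fits that leave out 1 array, the one without control shRNA replicate 2 called it at 0.60 while in the other 5 the adjusted p was between 0.0535 and 0.0933. A dim second Aldoc probe set read 74.7 ± 16.1 in PIK3CA shRNA cells and 67.6 ± 4.45 in control shRNA cells (SD, n = 3 each), with overlapping groups, and the mean of both was at 0.43 and not called (limma adjusted p = 0.0709).

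Rpia, the ribose phosphate isomerase of the non-oxidative pentose phosphate branch, read 1264, 1389 and 1476 in PIK3CA shRNA cells, against 928, 1024 and 979 in control shRNA cells. Rpia changed by 0.49 (standard error 0.08, limma adjusted p = 0.0204). Hk2, the inducible hexokinase that is common in tumours, read 2353, 2504 and 2680 in PIK3CA shRNA cells, against 1938, 1800 and 2078 in control shRNA cells. Hk2 changed by 0.37 and was just inside the threshold (limma adjusted p = 0.0482). Tpi1, triose phosphate isomerase, read 7651, 7810 and 7699 in PIK3CA shRNA cells, against 6392, 6475 and 6567 in control shRNA cells. All 3 Tpi1 probe sets had groups that did not overlap, with changes from 0.23 to 0.28, and the brightest was called at 0.25 (limma adjusted p = 0.0358). The calls of Hk2 and Tpi1 were lost in each of the 6 fits that left out 1 array (adjusted p up to 0.137 and 0.111). Rpia was called in the fit without PIK3CA shRNA replicate 1, and in the other 5 its adjusted p was between 0.0557 and 0.0708.

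**Figure D2:**
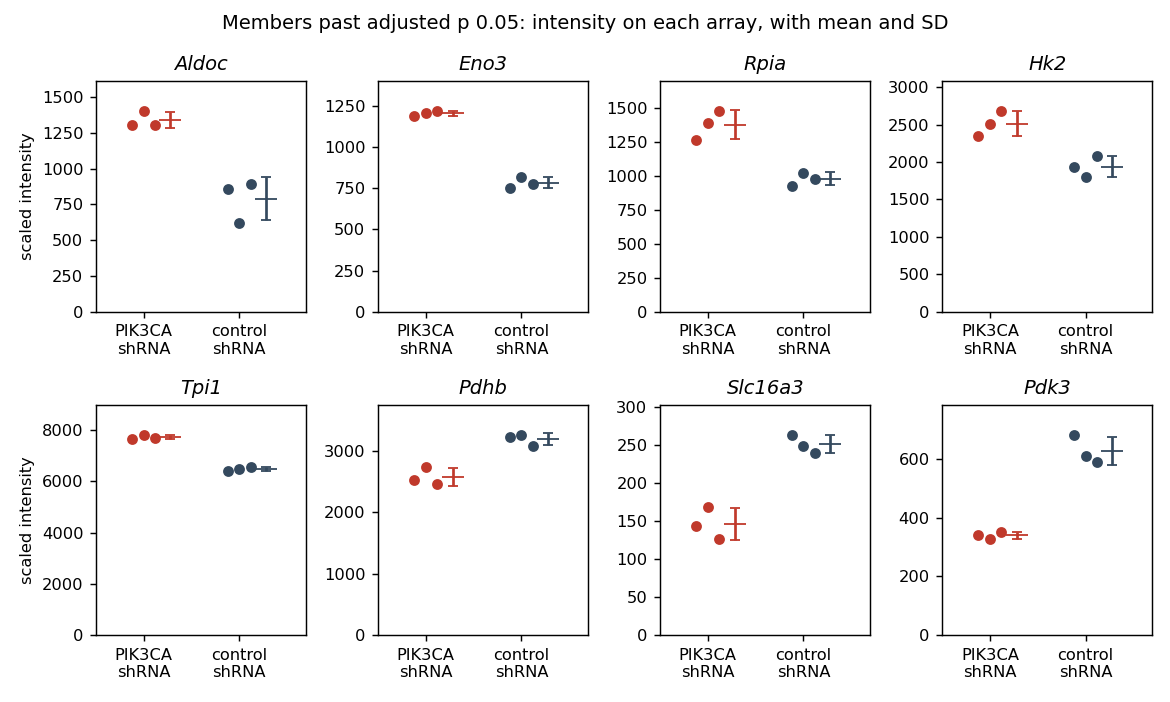
Scaled intensity (linear axes from 0) of the 8 genes past the threshold on each of the 3 PIK3CA shRNA arrays (red, left) and 3 control shRNA arrays (dark, right), with mean and SD beside the points. The groups do not overlap in any of the 8 genes.

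Rpia, Hk2 and Tpi1 all lie on chromosome 6 in the GRCm38.p6 gene table, which holds 7 of the 34 genes. The brighter genes of that chromosome were shifted as a whole, with a median change of 0.18 over 423 genes above the median brightness. After the median of each chromosome was taken out of each array, Rpia was at 0.31 (limma adjusted p = 0.0738), Hk2 at 0.19 (adjusted p = 0.233) and Tpi1 at 0.07 (adjusted p = 0.451), so none of the 3 passed. The other 4 genes on chromosome 6 were Eno2 at 0.44, Pdk4 at -0.08, Ldhb at -0.14 and Slc2a3 at -0.17, and none was called. Aldoc, Eno3 and Slc16a3 lie on chromosome 11, where the median was -0.01, and kept their calls in that fit, as did Pdk3 on chromosome X (median -0.03). Pdhb, on chromosome 14, was at -0.29 (adjusted p = 0.0608). Neighbours were read as the 5 tested genes on each side in gene order, bright or dim. Their medians are thus not matched to the chromosome medians, which are of brighter genes. Of the 10 neighbours of Rpia 0 were called by limma, against 11.5% of all genes, and their median change was -0.05. For Hk2 3 of 10 were called and the median was 0.08, and for Tpi1 1 of 10 was called and the median was 0.05. For Eno3 2 of 10 were called, both higher, and the median was 0.12. For Aldoc, Slc16a3 and Pdhb the medians were 0.07, -0.02 and 0.08, with 1, 0 and 1 of 10 called. For Pdk3 the median of the 10 neighbours was -0.24, with 0 of 10 called. Whether shifts shared along a chromosome account for any of these changes was not tested.

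**Figure D3:**
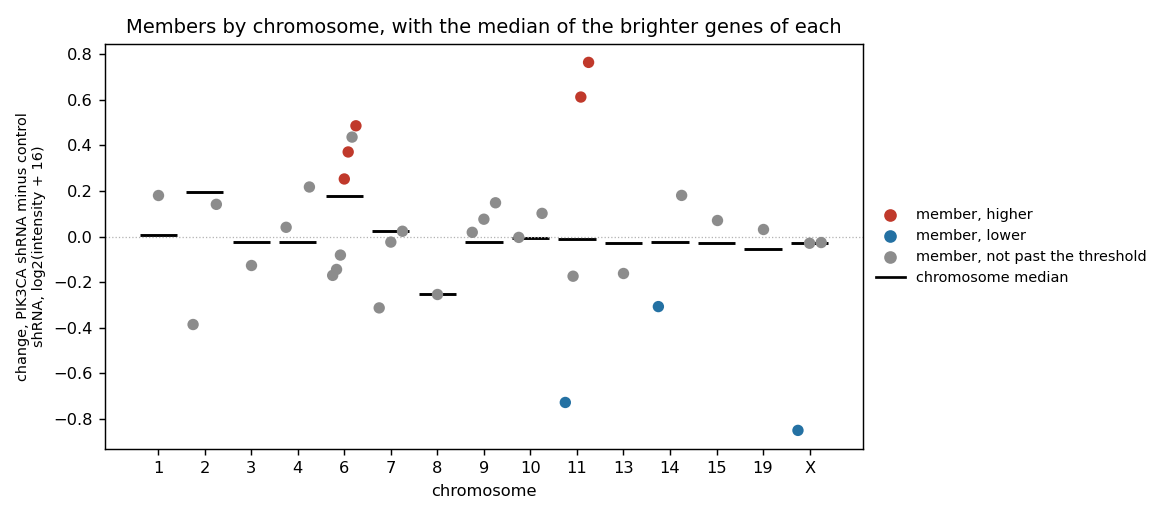
Change of each measured gene (points, PIK3CA shRNA minus control shRNA, log2(intensity + 16)) by chromosome, with a black bar at the median change of the genes above the median brightness on that chromosome. On chromosome 6 the bar stands at 0.18, and the 3 red points there are Rpia, Hk2 and Tpi1; on chromosome 11 it stands at -0.01.

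The 250 bases before the transcription start of the 4 genes with the largest changes are shown because these genes moved in opposite directions and hypoxia-response and E-box motifs are the best-known control elements of glycolytic genes. Capitals mark ACGTG, read on either strand, which is a form of the core of the hypoxia response element. The other form, GCGTG, was not searched for and is left in lower case. The sequences are from RefSeq, build GRCm38.p6, 5′ to 3′ on the strand of the gene.
Pdk3 (chrX:93832151-93832400, minus strand): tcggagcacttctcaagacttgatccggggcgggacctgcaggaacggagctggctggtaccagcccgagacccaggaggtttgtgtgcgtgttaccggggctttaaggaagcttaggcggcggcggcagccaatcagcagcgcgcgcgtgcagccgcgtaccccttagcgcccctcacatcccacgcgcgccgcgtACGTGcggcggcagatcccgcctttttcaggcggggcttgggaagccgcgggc
Slc16a3 (chr11:120948817-120949066, plus strand): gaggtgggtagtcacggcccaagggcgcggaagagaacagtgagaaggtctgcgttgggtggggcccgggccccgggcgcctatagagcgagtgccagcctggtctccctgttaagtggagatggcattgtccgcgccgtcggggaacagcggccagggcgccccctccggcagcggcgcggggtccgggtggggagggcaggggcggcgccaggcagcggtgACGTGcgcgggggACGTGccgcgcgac
Aldoc (chr11:78322823-78323072, plus strand): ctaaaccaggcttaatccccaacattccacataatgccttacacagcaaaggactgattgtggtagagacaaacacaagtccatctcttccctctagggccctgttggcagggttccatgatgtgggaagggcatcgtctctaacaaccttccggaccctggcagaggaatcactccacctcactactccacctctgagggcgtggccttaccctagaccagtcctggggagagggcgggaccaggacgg
Eno3 (chr11:70656926-70657175, plus strand): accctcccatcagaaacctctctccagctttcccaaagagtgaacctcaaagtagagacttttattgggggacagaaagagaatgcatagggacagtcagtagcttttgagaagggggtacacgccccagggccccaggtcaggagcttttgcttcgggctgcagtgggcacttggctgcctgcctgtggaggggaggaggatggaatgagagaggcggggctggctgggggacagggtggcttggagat

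The stretch before Slc16a3 held ACGTG at 2 places, beginning 27 and 14 bases before the start, and that before Pdk3 held it at 1 place, beginning 53 bases before. The stretches before Aldoc and Eno3 held no ACGTG, although the Aldoc window held 1 within the 50 bases after the start. GCGTG, read on either strand, can be seen in the printed stretches of Aldoc, Eno3 and Pdk3, so the absence is of ACGTG alone. For Slc16a3 and Eno3 the start used lies inside the annotated span of the gene. Over windows of 300 bases (250 before to 50 after each start, both strands), ACGTG was present in 21 of 48 windows of the measured genes (43.8%). It was present in 19.6% of all 32851 windows. By gene, 17 of 33 measured genes with a window held it, against 5886 of 27025 genes in all. Base composition was not matched. G and C made up 73.6% of the Slc16a3 stretch and 67.6% of that of Pdk3, against 55.2% for Aldoc and 57.2% for Eno3. The E-box CACGTG, which contains ACGTG, was present in 6 of the 48 windows (12.5%) and in 7.15% of all windows. In the windows of the 8 called genes ACGTG was found in 5 of 9 and CACGTG in 0 of 9. Among the called genes not printed, the window of Hk2, which rose, held ACGTG at 2 places. That of Pdhb, which fell, held it at 1 place, and those of Rpia and Tpi1, which rose, at 0. ACGTG was thus found in windows of called genes of both directions. The matches describe these letters in these windows and are not evidence of binding.

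At glucose entry, Slc2a1, which encodes the widespread basal glucose transporter GLUT1, read 2261, 2371 and 2522 in PIK3CA shRNA cells, against 2021, 2095 and 2026 in control shRNA cells. The groups did not overlap in any of its 3 probe sets (changes of 0.20 to 0.22), but the adjusted p was 0.0995 in limma. Slc2a3, which encodes the high-affinity transporter GLUT3, was dim at 70.0 ± 15.8 in PIK3CA shRNA cells and 80.4 ± 14.2 in control shRNA cells (SD, n = 3 each). Hk1, the constitutive hexokinase, was at 0.00, with a 95% interval from -0.18 to 0.17. The change of Hk2 exceeded that of Hk1 by 0.38 within arrays, a comparison chosen after the values were seen and not tested.

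None of the phosphofructokinase genes passed the threshold. Pfkl and Pfkm, the liver-type and muscle-type subunits of the committed step, were at 0.10 and 0.07 with overlapping groups. Pfkp, the platelet-type subunit, read 1549, 1596 and 1639 in PIK3CA shRNA cells, against 1725, 1746 and 1877 in control shRNA cells. Its change was -0.16 (limma adjusted p = 0.186), all 3 of its probe sets had negative changes, and 2 of them had groups that did not overlap. The Pfkfb genes encode bifunctional enzymes that make and remove an allosteric activator of phosphofructokinase. Pfkfb3, the isozyme with the strongest kinase activity, was at -0.39 with a wide 95% interval of -0.84 to 0.06, on intensities of 87.4 ± 22.9 in PIK3CA shRNA cells and 118 ± 15.5 in control shRNA cells (SD, n = 3 each). Its second probe set was at 0.01. Pfkfb2 and Pfkfb4 were at 0.18 and 0.02 and did not pass.

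In middle and lower glycolysis, 7 of 8 genes had positive changes, 3 of which passed. Over all 18193 genes 8734 changes were positive and 9459 negative. The main isozymes had narrow intervals around 0. Aldoa, the aldolase of most tissues, changed by 0.02 (95% interval -0.12 to 0.17). Pgk1, phosphoglycerate kinase, changed by -0.03 (-0.17 to 0.11), and Pgam1, phosphoglycerate mutase, by 0.03 (-0.10 to 0.17). Pkm, the pyruvate kinase of most tissues and tumours, changed by 0.08 (-0.12 to 0.27). Aldoc therefore moved unequally to Aldoa, by 0.74 more within arrays, a comparison chosen after the values were seen and not tested. Eno2, the neuron-type enolase, read 78.3, 72.5 and 87.2 in PIK3CA shRNA cells, against 63.5, 47.7 and 52.7 in control shRNA cells. Its groups did not overlap, but it was dim and its change of 0.44 had a limma adjusted p of 0.0615.

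All 4 lactate genes had negative changes, and Slc16a3 was the 1 that passed. Ldha, the lactate dehydrogenase subunit that favours lactate formation, read 8161, 8244 and 8049 in PIK3CA shRNA cells, against 8282, 8269 and 8322 in control shRNA cells. The groups did not overlap, yet the PIK3CA shRNA mean was 98.3% of control, with a change of -0.02 (95% interval -0.15 to 0.10, limma adjusted p = 0.817). Slc16a1, which encodes the other main lactate transporter MCT1, read 5467, 5352 and 5310 in PIK3CA shRNA cells, against 5877, 5785 and 5926 in control shRNA cells. These groups did not overlap and the change was -0.12 (95% interval -0.25 to 0.00, limma adjusted p = 0.208). Ldhb, the subunit that favours pyruvate formation, was at -0.14 by its brightest probe set, with overlapping groups. Another, dim Ldhb probe set was at -1.01, with an adjusted p of 0.0803 in a limma fit over all probe sets. It read 15.0 ± 8.73 in PIK3CA shRNA cells and 45.6 ± 12.2 in control shRNA cells (SD, n = 3 each). The other 2 of the 4 Ldhb probe sets, also dim, were at 0.06 and 0.00 with overlapping groups.

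Of the 7 pyruvate dehydrogenase genes, 5 had negative changes and 2, Pdk3 and Pdhb, passed. Pdk1, a kinase isozyme known in human and mouse cells as a hypoxia-inducible gene, read 2770, 2972 and 2901 in PIK3CA shRNA cells, against 2482, 2605 and 2749 in control shRNA cells. Its change was 0.14 (limma adjusted p = 0.258), and 3 of its 4 probe sets had higher, non-overlapping groups, up to a change of 0.33. Pdk3 and Pdk1 thus had changes of opposite sign, 0.99 apart within arrays, a comparison chosen after the values were seen and not tested. Pdk2, the most widely expressed isozyme, was at -0.17 with overlapping groups. Pdk4, the starvation-responsive isozyme and a FOXO target, was near the background, at 34.1, 46.7 and 7.05 in PIK3CA shRNA cells, against 32.3, 25.1 and 27.2 in control shRNA cells. Its 95% interval ran from -1.02 to 0.86, too wide to place its change. Pdha1, the E1 alpha subunit, was at -0.03 (95% interval -0.17 to 0.12), and Dlat, the E2 subunit, at 0.15 (-0.12 to 0.42).

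In the pentose phosphate pathway, Rpia was the 1 of 5 measured genes to pass, and Taldo1 lay just outside the threshold on the other side. Taldo1, transaldolase of the non-oxidative branch, read 1559, 1410 and 1495 in PIK3CA shRNA cells, against 1970, 1737 and 1854 in control shRNA cells. The groups did not overlap and the change was -0.31 (limma adjusted p = 0.0559). Pgls, the lactonase of the oxidative branch, read 2421, 2152 and 2264 in PIK3CA shRNA cells, against 2849, 2563 and 2749 in control shRNA cells. Its change of -0.25 (limma adjusted p = 0.0978) equalled the median of its chromosome, 8, which was -0.25 over 512 genes. Tkt, transketolase, was at 0.18 with overlapping groups by its brightest probe set. Of its other 2 probe sets, a bright one was also at 0.18, with groups that did not overlap, and a dim one was at -0.40 (64.6 ± 17.6 in PIK3CA shRNA cells and 89.1 ± 2.26 in control shRNA cells, SD, n = 3 each), also without overlap. Pgd, the dehydrogenase of the oxidative branch, ranged from 2992 to 3654 in PIK3CA shRNA cells and from 2710 to 3954 in control shRNA cells by its brightest probe set, with a change of 0.04. Another Pgd probe set was tighter, at 2009 ± 51.8 in PIK3CA shRNA cells and 1967 ± 96.8 in control shRNA cells (SD, n = 3 each), with a change of 0.03. The other 2 Pgd probe sets were at -0.23 and -0.27, and groups overlapped in all 4.

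A further 62 genes of these routes, with regulators, were listed and 56 were measured. Of them 5 rose and 2 fell (12.5%, against 11.5% of all genes). H6pd had the largest change of the 56. It encodes the hexose phosphate dehydrogenase that runs the oxidative pentose phosphate steps inside the endoplasmic reticulum. H6pd read 802, 764 and 846 in PIK3CA shRNA cells, against 152, 152 and 161 in control shRNA cells. All 3 PIK3CA shRNA arrays stood far above the controls, with a mean at 519% of the control mean. The change of 2.26 (standard error 0.06, limma adjusted p = 0.000115) passed in all 18 alternative settings tried. H6pd has 1 probe set, so settings that average or choose among probe sets could not alter its change. The cytosolic enzymes of the branch that were measured, Pgls and Pgd, were at -0.25 and 0.04 and did not pass; G6pdx was not analysed here.

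Of the other 6 called genes, 5 encode enzymes or carriers of these and adjoining routes and 1, Epas1, a transcription factor. Mpc1, a subunit of the carrier that brings pyruvate into mitochondria, read 1332, 1358 and 1168 in PIK3CA shRNA cells, against 2050, 2303 and 1937 in control shRNA cells. The groups were well apart and Mpc1 fell by 0.70 on the log2 scale (limma adjusted p = 0.0121), in the same direction as Pdhb and Pdk3. Fbp2, the muscle-type fructose bisphosphatase of gluconeogenesis, also fell (-0.45, limma adjusted p = 0.0390). Pgm1, a phosphoglucomutase gene, is the gene on chromosome 4 that RefSeq lists under this symbol for the platform's gene identifier. The mouse symbols Pgm1 and Pgm2 have been exchanged between annotations, and RefSeq gives Pgm2 as a synonym. Pgm1 read 475, 497 and 471 in PIK3CA shRNA cells, against 274, 284 and 251 in control shRNA cells. Pgm1 rose by 0.80 (limma adjusted p = 0.00280), but its second probe set moved the other way, at -0.48, and the mean of both was 0.16 and not called. Gpd1 and Gpd2, the cytosolic and mitochondrial glycerol phosphate dehydrogenases, rose by 0.55 and 0.24 (limma adjusted p = 0.0336 and 0.0464). Of the 4 Gpd1 probe sets 3 had higher, non-overlapping groups, while Gpd2 had 2 probe sets higher, 1 lower and 1 overlapping, and lies on chromosome 2, where the median change was 0.20 and where it was at 0.05 and not called after the chromosome median was taken out (limma adjusted p = 0.661). The calls of Fbp2, Gpd1 and Gpd2 were lost in each of the 6 fits that left out 1 array, while those of H6pd, Mpc1, Pgm1 and Epas1 held in all 6.

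Among the transcription factors on that list, Epas1, which encodes the hypoxia-inducible factor HIF-2 alpha, read 293, 290 and 344 in PIK3CA shRNA cells, against 135, 144 and 173 in control shRNA cells. The groups did not overlap in either of its probe sets, and Epas1 rose by 0.96 (limma adjusted p = 0.00807). Hif1a, the other main alpha subunit, was at -0.20 (limma adjusted p = 0.0773), and Myc at 0.14 (adjusted p = 0.171). Mlxip and Mlxipl, glucose-sensing factors, were at 0.01 and -0.34 and did not pass.

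**Figure D4:**
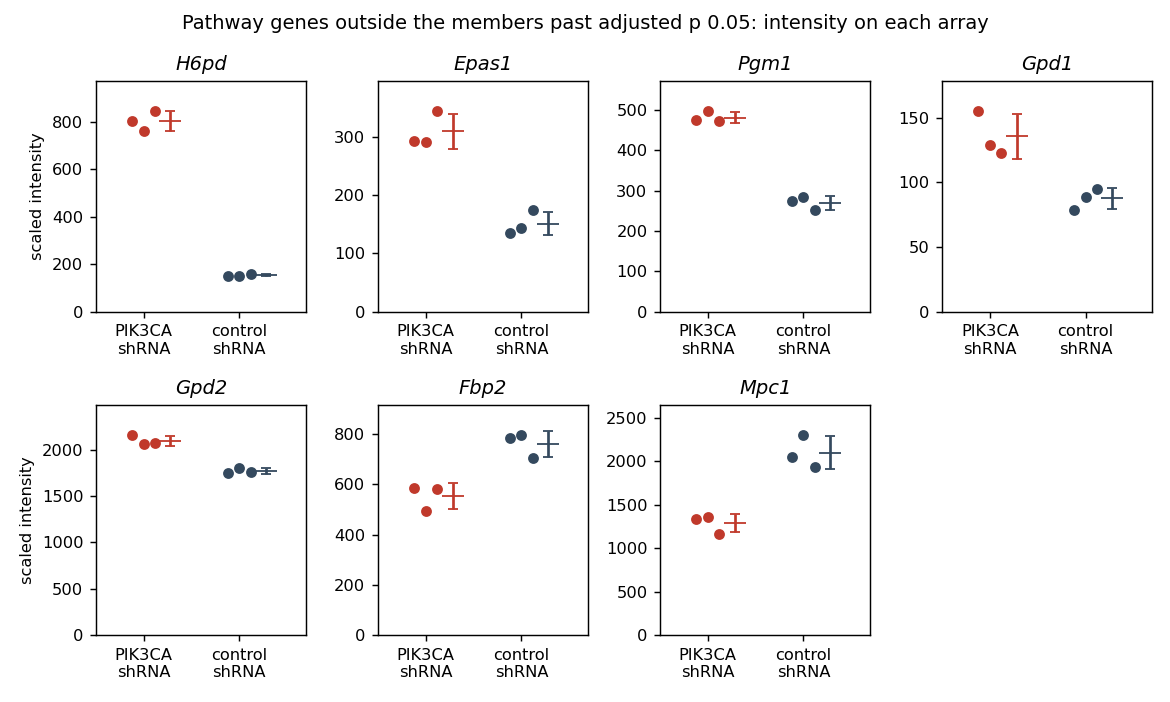
Scaled intensity (linear axes from 0) of the 7 genes of the same routes outside the 34 that passed the threshold, on each of the 3 PIK3CA shRNA arrays (red, left) and 3 control shRNA arrays (dark, right), with mean and SD beside the points. H6pd stands out, with PIK3CA shRNA arrays at 764 to 846 and control arrays at 152 to 161.

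Since Eno3 and Aldoc are isozymes of muscle and brain, markers of other cell types were read beside them. In bulk RNA a change in the share of cells of a type and a change in RNA per cell cannot be told apart. The 5 muscle markers summed to between 357 and 518 in PIK3CA shRNA cells and between 439 and 480 in control shRNA cells, with 0 of 5 called by limma and 0 with an unadjusted p under 0.05. Of 4 neural markers 1, Tubb3, was called, and it was lower (-1.41). Of the others, none called, the dim Snap25 was at 0.65 (limma adjusted p = 0.191), Syp at 0.02 and Map2 at -0.06, and 2 of the 4 had an unadjusted p under 0.05. The neural sums were 194 to 361 in PIK3CA shRNA cells and 319 to 377 in control shRNA cells. Of 6 measured leukocyte markers Cd14 was called (0.65), with sums of 2074 to 2468 in PIK3CA shRNA cells and 1496 to 1639 in control shRNA cells; the pan-leukocyte gene Ptprc was dim and at -0.03. Of 6 fibroblast markers Dcn was called (-0.75), with sums of 453 to 747 in PIK3CA shRNA cells and 660 to 679 in control shRNA cells. Of 4 endothelial markers 0 were called by limma (2 had an unadjusted p under 0.05), with sums of 526 to 646 in PIK3CA shRNA cells and 492 to 578 in control shRNA cells. The part of other cell types in the changes was not tested.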

How the data were processed

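Total RNA of 344SQ cells was labelled with biotin and read on Affymetrix mouse arrays, 1 per sample, per the labels' protocols. The authors deposited linear intensities for 45101 probe sets, already brought to a common distribution (each array from 0.0359 to 17918.5); the method and software are not given in the sources used here. No detection calls were used. Precision is limited by having 6 arrays. With 64 control probe sets removed, each array was scaled to the same median, 16 was added and log2 taken; 15.0% of values lay below 16. The platform annotation gave 34945 probe sets 1 symbol, 932 several and 9160 none; 34741 matched RefSeq (GRCm38.p6) by gene identifier, with 0 symbols changed. The brightest probe set stood for its gene.

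The test was limma's (version 3.58.1, R 4.3.3; lmFit and eBayes, two-sided, without a replicate block), and p-values were adjusted by Benjamini-Hochberg across all 18193 genes. All 6 arrays were used. Same-numbered replicates did not deviate together over all genes (correlations 0.05, -0.02 and -0.02). This does not settle whether the numbers pair the arrays, which the labels do not state. Genes named are Pik3ca, all measured members, every listed pathway gene past the threshold, and listed marker genes. The 4 regulators that did not pass and the comparisons of changes within arrays were added after their values were seen. The members and lists were chosen with earlier results of these data known. The fitting step was tested on simulated data of 18193 genes, few of them changed. It recovered 11.9% of 67 genes changed by 0.5 on the log2 scale, 64.2% of 67 changed by 1 and 93.9% of 66 changed by 2. Far more genes were called in the real data, so these shares need not hold there. A gene that was not called is not shown to be unchanged. Figures used matplotlib 3.10.9 in Python 3.11.15. Alternatives are given in the closing section.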

Additional observations from a re-analysis of the deposited data

How the results depend on the processing

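Over all genes 1070 were higher and 1023 lower as reported. These counts were 260 and 153 with a replicate block and 1606 and 1586 with an intensity trend and robust prior. They were 379 and 257 at adjusted p 0.01, and 785 and 725 with the mean of probe sets. With each gene's most variable probe set they were 831 and 723, and with chromosome medians removed 842 and 724. With dim genes left out 1467 were higher and 1557 lower, among genes above the median brightness only. Leaving out 1 array gave 512 to 606 higher and 414 to 532 lower. Of the members, 5 were higher and 3 lower as reported. With a replicate block 0 were higher (Eno3 at adjusted p = 0.0516) and 1, Pdk3, was lower, by limma in each case. Whether the replicate numbers pair the arrays is not stated in the labels. At adjusted p 0.01 the counts were 1 (Eno3) and 1 (Pdk3). Higher members numbered 2 with the mean of probe sets (Eno3 and Rpia), 3 with each gene's most variable probe set (by interquartile range; Aldoc, Eno3 and Rpia) and 2 with chromosome medians removed (Aldoc and Eno3). With an intensity trend and robust prior 6 were higher, adding Slc2a1, and 6 were lower, adding Taldo1, Pgls and Slc16a1. With dim genes left out 6 were higher, adding Slc2a1, and 4 were lower, with Taldo1 and Pgls among them. Leaving out 1 array gave 1 to 2 higher and 1 to 2 lower. The members' median change, 0.02 as reported, was -0.00309 with the most variable probe set, 0.00515 with chromosome medians removed, and -0.0131 to 0.0394 without 1 array. Pik3ca and Pdk3 passed in all 18 alternatives and Eno3 in 17. Slc16a3 passed in 12 of 17 and is not among the genes kept when dim genes are left out. Aldoc and Rpia passed in 10 of 18, Tpi1 in 7, and Hk2 and Pdhb in 6. Of the 8 called members 5 have 1 probe set (Eno3, Hk2, Pdk3, Rpia and Slc16a3). For these, settings that average or choose among probe sets could not alter the change. None of the 16 called genes followed through these settings changed sign. Quantile normalization, no scaling and array weights left the same 8 members called. Quantile normalization and no scaling could change little, because the deposited arrays already shared a common distribution. The cause of lost calls was not tested. Dim genes such as Pdk4 have wide intervals.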
